A study of Homo sapiens with 6 samples.

Results

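The genes described here are 10 regulators and targets of the transcriptional co-activators YAP and TAZ, chosen by name from the 62700 genes of a deposited table of read counts. They are the co-activator genes YAP1 and WWTR1 (which encodes TAZ), the DNA-binding partner TEAD1, the kinase gene LATS2, the scaffold genes AJUBA, AMOTL1 and AMOTL2, and the target genes ANKRD1, CCN1 and CCN2. All 10 were found once each and all 10 passed the filter on low counts, as did 20250 genes in all. The study sequenced poly(A) RNA from cells labelled MKN-45, a human gastric adenocarcinoma line, in 3 control libraries and 3 libraries labelled NNMT knockdown, harvested 48 h after transfection. The labels describe each condition's 3 libraries as independent biological replicates. They call the transfected RNA siRNA in one place and shRNA in others, and the controls either untouched or given a negative-control RNA; nothing else is given that separates the groups, and all 6 cultures are of the same labelled line.

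YAP and TAZ carry no DNA-binding domain of their own and act by binding TEAD transcription factors on DNA. In the Hippo pathway the kinases MST1 and MST2 activate LATS1 and LATS2, which phosphorylate YAP and TAZ and thereby hold them in the cytoplasm or mark them for degradation. Angiomotin proteins also bind YAP and TAZ, while the LIM protein encoded by AJUBA binds and restrains LATS kinases at cell junctions. ANKRD1, CCN1 and CCN2 are widely used as readouts of YAP and TAZ activity, and LATS2 and AMOTL2 are targets that feed back on the pathway. Control of YAP and TAZ is largely by protein phosphorylation and location, which RNA counts do not measure.

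The sequences below are shown because they hold the TEAD core motif in front of 3 target genes. The motif GGAATG, or CATTCC when it lies on the opposite strand, was searched in the 250 bases before each RefSeq transcript start (RefSeq, GRCh38.p14), and is in capitals in sequences that read 5′ to 3′ on the strand of the gene.
CCN2, minus strand, chr6:131951442-131951561: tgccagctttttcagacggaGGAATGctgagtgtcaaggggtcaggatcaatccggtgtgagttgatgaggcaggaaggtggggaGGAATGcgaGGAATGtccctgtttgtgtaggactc
ANKRD1, minus strand, chr10:90921190-90921327: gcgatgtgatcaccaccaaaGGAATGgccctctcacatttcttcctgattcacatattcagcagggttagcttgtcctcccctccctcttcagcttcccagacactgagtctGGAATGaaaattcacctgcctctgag
AMOTL2, minus strand, chr3:134374491-134374536: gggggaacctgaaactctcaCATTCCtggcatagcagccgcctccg
The CCN2 window held 3 copies, the first base of each lying 169, 104 and 95 bases before the start. ANKRD1 held 2, at 220 and 128 bases, and AMOTL2 held 1, at 69 bases before one of its 2 listed starts. The window at the other AMOTL2 start held 0, as did that of LATS2, also a target.

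Among 35114 RefSeq windows of the same length, 11.9% held the core at least once, 0.94% at least 2 times and 0.0826% at least 3 times. Of the 10 genes, 8 had a window (TEAD1 and CCN1 were not matched), and 5 of these 8 held the core, in 5 of their 11 windows. The other 2 were YAP1 and, at 1 of its 2 starts, AJUBA, shown here because both are regulators and not among the targets named above.
YAP1, plus strand, chr11:102110265-102110310: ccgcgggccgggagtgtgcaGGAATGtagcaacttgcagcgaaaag
AJUBA, minus strand, chr14:22976876-22976921: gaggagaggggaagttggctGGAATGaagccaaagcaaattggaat
The pattern TGANTCA, which allows any base at N and is thus wider than the AP-1 consensus, was searched on both strands. It was found once, as TGATTCA in the ANKRD1 window at 195 bases before the start. Of all windows, 6.57% held this wide pattern, and the narrower consensus was not searched. No window of the 8 genes held a CArG box, the site of serum response factor, which 1.16% of all windows held. These are matches of letters and say nothing of binding in these cells.

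Library totals lay between 40558680 and 56067484 reads. The gene NNMT itself had 0, 8 and 12 reads in control replicates 1, 2 and 3, and 2, 8 and 14 in the labelled replicates. With so few reads already in control, a lowered NNMT level could not have been seen. These counts therefore cannot check the knockdown, and the wording "labelled knockdown" is kept. Of 16 gastric and intestinal epithelial markers, 8 lay below 1 CPM (counts scaled by the library total) in all libraries. KRT20 (22.6 to 78 CPM), MUC6 (25.7 to 84.1 CPM) and EPCAM (17.2 to 40 CPM) were present in every library, while GKN1 and CDX2 had 0 reads. Others varied widely between libraries, with CEACAM5 at 0.289 to 26.8 CPM, TFF3 at 0.481 to 15.9 CPM and MUC5AC at 3.67 to 42.5 CPM. The summed level of the 16 lay at 115 to 259 CPM in control and 98.6 to 192 CPM in the labelled libraries. Of 6 fibroblast markers, COL1A1 and COL3A1 lay above 50 CPM in every library while LUM and PDGFRB lay below 1 CPM, with summed levels of 326 to 414 CPM in control and 336 to 633 CPM in the labelled libraries. Of 4 immune markers, CD3E had 0 reads and the sum was at most 1.24 CPM, and of 3 endothelial markers only PECAM1 lay above 1 CPM.

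The YAP and TEAD genes lay mostly in the upper part of the range of tested genes, with all but ANKRD1 at or above 50.6% of them. Levels of different genes are compared here as CPM per kb of merged exons. CCN1, which encodes a secreted matricellular protein, was highest, with a median of 100.4 over the 6 libraries and a range of 77.6 to 146. WWTR1 followed at 54.7 (43.4 to 61.9), then CCN2, the gene of a second matricellular protein, at 37.5 (36.3 to 55.1). YAP1 lay at 24.6 (23.6 to 25.7) and TEAD1 at 16.1 (15.4 to 18). These 5 genes stood at or above 86.8% of the tested genes.

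The scaffold and kinase genes were lower. AJUBA had a median of 10.4 CPM per kb (7.74 to 12.9), AMOTL2 6.57 (6.38 to 8.51), LATS2 4.7 (4.08 to 4.93) and AMOTL1 2.5 (1.22 to 3.26), near the median tested gene at 2.42. ANKRD1 was last, at 0.189 CPM per kb, with only 11.2% of tested genes at or below it. Within every library the order was the same, although the ranges of WWTR1 and CCN2, and of AJUBA and AMOTL2, overlapped between libraries. The order depended on the length used: per kb of each gene's principal transcript in GENCODE 29, TEAD1 had a median of 56.2 and moved to rank 3, above CCN2 at 37.5 and YAP1 at 28.8. This length was chosen as an alternative after the data were seen, and the principal transcript of TEAD1 is of level 5, the least certain that the annotation gives.

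**Figure D1:**
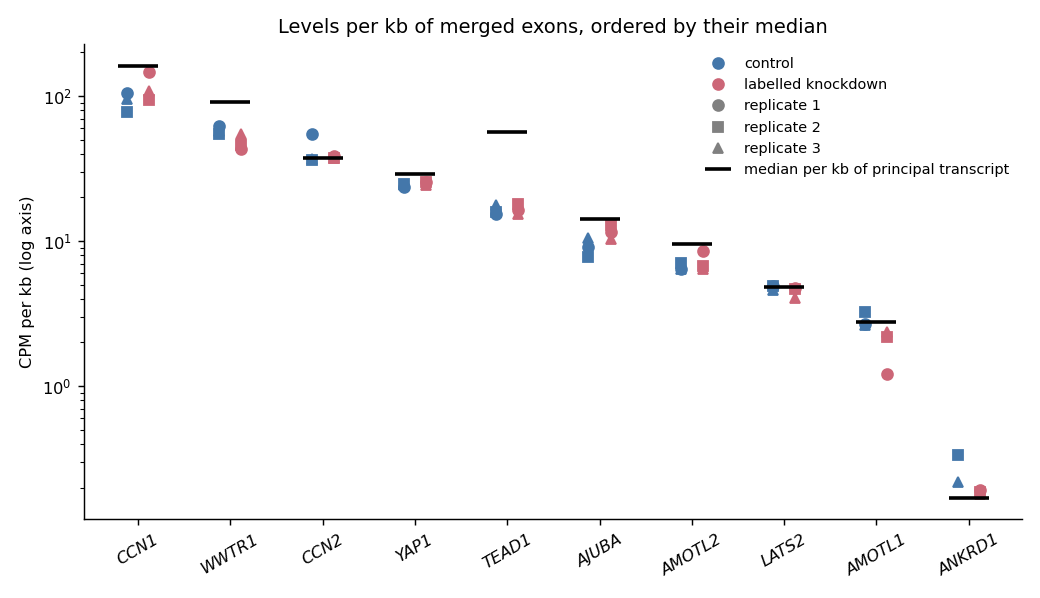
Level of each gene in CPM per kb of merged exons on a log axis, ordered by median; blue points are control and red points labelled knockdown libraries, shapes are replicates, and black bars are medians per kb of the principal transcript. CCN1 is highest with a median of 100.4 and ANKRD1 lowest at 0.189, and the black bar of TEAD1 at 56.2 lies well above its points; the control library with 0 ANKRD1 reads is not drawn.

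The comparison of the groups asked whether any of these genes differed between the libraries labelled knockdown and control. With edgeR's quasi-likelihood test, 0 of the 10 had an adjusted p under 0.05, against 0 of all 20250 tested genes (0.0%). In bulk RNA, fewer cells of a kind and less RNA per cell cannot be told apart. The adjusted p of the 10 genes lay between 0.9995 and 0.9999. At an unadjusted p under 0.05 there were 3 of the 10, AJUBA, WWTR1 and AMOTL1, where 4.03% of all tested genes lay under it. Of these 3, WWTR1 and AMOTL1 were lower in the labelled libraries, which 2.05% of all tested genes were at that p. The 10 genes were chosen with earlier results of these data known, so these counts are not a test of the set. Limma-voom also called 0 genes, and DESeq2 called 8 (0.041%), none of them among the 10. The 10 genes divided evenly, with 5 fitted below 0 and a median log2 fold change of 0.0147, against a median of 0.0033 over all tested genes, of which 49.2% lay below 0.

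**Figure D2:**
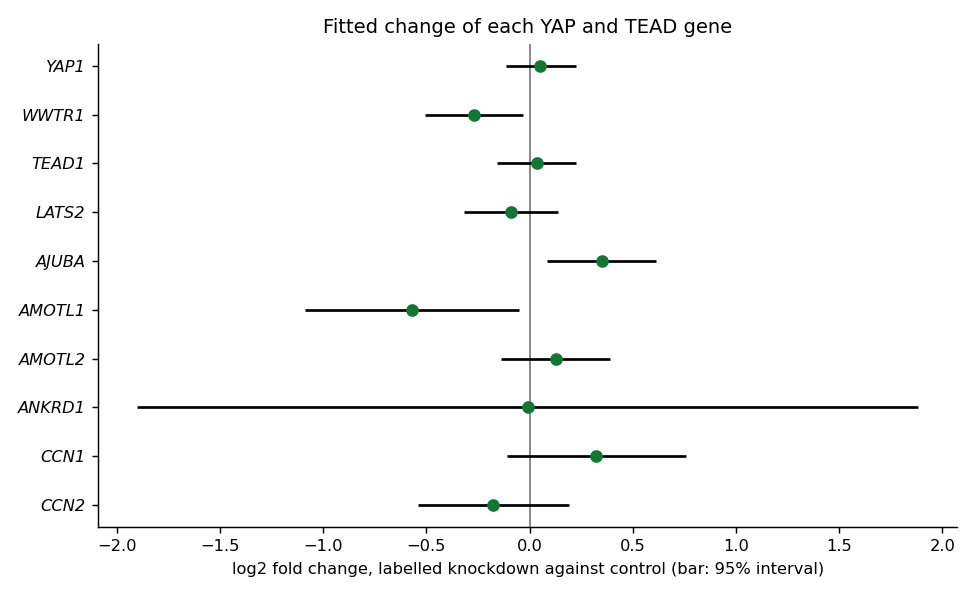
Fitted log2 fold change of each gene, labelled knockdown against control; points are edgeR estimates from 3 libraries a group and bars are 95% intervals. The intervals of WWTR1, AJUBA and AMOTL1 do not cross 0 before adjustment over all genes, and that of ANKRD1 is the widest.

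YAP1 (ENSG00000137693.14; hg38 chromosome 11, 102110447 to 102233424, plus strand) was the steadiest of the 10 genes. It measured 149, 156 and 154 CPM in control replicates 1, 2 and 3, and 160, 162 and 153 CPM in the labelled replicates. The groups overlapped, and the highest library was only 1.09 times the lowest. Its log2 fold change was 0.05 (SE 0.0764), and the 95% interval of the fold reached from 0.923 to 1.17. Of the YAP1 exon bases, 10.1% are shared with antisense-strand genes, which had at most 64 reads in any library.

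WWTR1 (ENSG00000018408.15; chromosome 3, 149517235 to 149736714, minus strand) encodes TAZ, the paralog of YAP. It measured 517, 457 and 479 CPM in control and 363, 385 and 457 CPM in the labelled libraries. The labelled libraries lay at or below the controls, but the lowest control and the highest labelled library were equal to 3 digits. For WWTR1 the fitted fold was 0.831 (log2 -0.27, SE 0.107; 95% interval 0.705 to 0.978). After Benjamini-Hochberg adjustment in edgeR the p was 0.999. The antisense gene WWTR1-AS1 covers 9.05% of its exon bases and had 37 to 73 reads, against at least 14716 for WWTR1.

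WWTR1 exceeded YAP1 in every library. The ratio of their levels per kb was 2.62, 2.21 and 2.34 in control and 1.71, 1.79 and 2.25 in the labelled libraries. The ratio averaged 2.39 ± 0.209 and 1.92 ± 0.291 (SD, n = 3), and the groups overlapped. Per kb of principal transcripts it lay between 2.43 and 3.71, so the direction held under either length.

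TEAD1 (ENSG00000187079.20; chromosome 11, 12674421 to 12944737, plus strand) encodes a TEAD factor through which YAP and TAZ reach DNA. Its levels were 165, 169 and 188 CPM in control and 176, 193 and 165 CPM in the labelled libraries, so the groups overlapped fully. TEAD1 had a log2 fold change of 0.04 (SE 0.0875), with the fold between 0.898 and 1.17. All 4 TEAD genes were detected. TEAD2 measured 70.6 to 90 CPM, TEAD3 24.1 to 26.1 CPM and TEAD4 10.6 to 13.5 CPM over the 6 libraries.

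Which TEAD gene led depended on the length used. Per kb of merged exons TEAD2 gave 43.8% to 51.2% of the summed TEAD level and TEAD1 26% to 32.1%. Per kb of principal transcripts TEAD1 gave 48.3% to 56% and TEAD2 30.3% to 37.6%. TEAD3 and TEAD4 were the 2 lowest under both lengths. Of the Vestigial-like cofactors that compete with YAP and TAZ for TEAD, VGLL4 measured 55.8, 62.7 and 53.4 CPM in control and 43.2, 42.3 and 57.5 CPM in the labelled libraries. VGLL3 lay at 1.15 to 2.59 CPM, and VGLL1 and VGLL2 had 0 reads in all libraries.

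LATS2 (ENSG00000150457.9; chromosome 13, 20973036 to 21061586, minus strand) encodes a kinase that phosphorylates YAP and TAZ, and is itself a target of YAP. It measured 27.4, 27.7 and 25.8 CPM in control and 26.6, 26.2 and 22.9 CPM in the labelled libraries. The groups overlapped, with replicate 3 of the labelled libraries lowest. LATS2 had a log2 fold change of -0.09 (SE 0.101), with the fold between 0.803 and 1.1. It was -0.027 without labelled replicate 3 and -0.149 without labelled replicate 1. Its paralog LATS1 measured 43.7 to 48.6 CPM, and the LATS2 to LATS1 ratio per kb lay between 0.748 and 0.949.

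The rest of the kinase arm was present in every library. STK4 (MST1) measured 82.3 to 106 CPM and STK3 (MST2) 7.01 to 8.63 CPM. The adaptor gene SAV1 lay at 37.3 to 47 CPM, and the LATS co-activators MOB1A and MOB1B at 135 to 150 and 81.7 to 97.3 CPM. NF2, which encodes the membrane-linked activator merlin, lay at 154 to 200 CPM. Of 23 kinase-arm genes, all tested, 0 passed in either direction, 14 had estimates above 0, and their median change was 0.007 on the log2 scale. The lowest unadjusted p among them were those of MAP4K2, at 57, 60.8 and 56.4 CPM in control and 62, 67.7 and 64 CPM in the labelled libraries, then MAP4K3 and WWC2.

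AJUBA (ENSG00000129474.17; chromosome 14, 22971177 to 22982551, minus strand) had the lowest unadjusted p of the 10 genes. It measured 53.8, 45.5 and 61.7 CPM in control and 68.1, 76.2 and 60.3 CPM in the labelled libraries. Replicates 1 and 2 of the labelled libraries lay above every control, while labelled replicate 3 lay within the control range. For AJUBA the fitted fold was 1.27 (log2 0.35, SE 0.119; 95% interval 1.06 to 1.53). The edgeR p was 0.999 once adjusted over all genes. Among its family, LIMD1 measured 77.8, 91.9 and 78.9 CPM in control and 66.7, 73.3 and 76.9 CPM in the labelled libraries. WTIP lay at 0.715 to 1.92 CPM. The AJUBA to LIMD1 ratio per kb was 1.49, 1.07 and 1.68 in control and 2.2, 2.24 and 1.69 in the labelled libraries. The groups of this ratio did not overlap, but the highest control and the lowest labelled library nearly met. LIMD1 alone was lower without overlap, as were 4.88% of all tested genes, so the ratio is not a separate result.

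AMOTL1 (ENSG00000166025.18; chromosome 11, 94706431 to 94876748, plus strand) encodes an angiomotin-like scaffold that binds YAP. It measured 26.9, 32.7 and 26.3 CPM in control and 12.3, 21.8 and 23.7 CPM in the labelled libraries. All labelled libraries lay below all controls, and labelled replicate 1 stood far below the other two. Ranges that did not overlap, in either direction, were found for 2 of the 10 genes, AMOTL1 and, by less than 1 CPM, WWTR1, and for 9.17% of all tested genes. Both of the 2 were lower in the labelled libraries, as were 4.88% of all tested genes without overlap, while 4.29% were higher. The count of 2 is likewise not a test, because the genes were chosen with earlier results known. For AMOTL1 the fitted fold was 0.674 (log2 -0.57, SE 0.223; 95% interval 0.471 to 0.964). Its edgeR p, adjusted over all genes, was 0.999. Without labelled replicate 1 the log2 fold change was -0.34. Without the filter on low counts AMOTL1 passed in edgeR (adjusted p = 0.0067), as did 0.19% of the 37861 genes then tested, 0.106% of them lower in the labelled libraries. Its SE was 0.125 in that fit.

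AMOTL2 (ENSG00000114019.15; chromosome 3, 134355347 to 134375479, minus strand), both a binding partner and a target of YAP, ran the other way in the same library. It measured 41.6, 45.9 and 41.4 CPM in control and 55.1, 43.5 and 41.6 CPM in the labelled libraries. Labelled replicate 1 was the highest and the other labelled libraries lay within the control range. The log2 fold change was 0.13 (SE 0.12), and it was -0.027 without labelled replicate 1. The AMOTL1 to AMOTL2 ratio per kb was 0.417, 0.46 and 0.411 in control and 0.144, 0.325 and 0.369 in the labelled libraries. The groups of this ratio did not overlap, but those of AMOTL1 alone did not either, so the ratio is not a separate result. The share of other gene pairs without overlap was not computed. Their relative AMOT, the founding angiomotin gene, measured 20.3, 24.5 and 19.6 CPM in control and 15.2, 18.6 and 20.6 CPM in the labelled libraries.

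**Figure D3:**
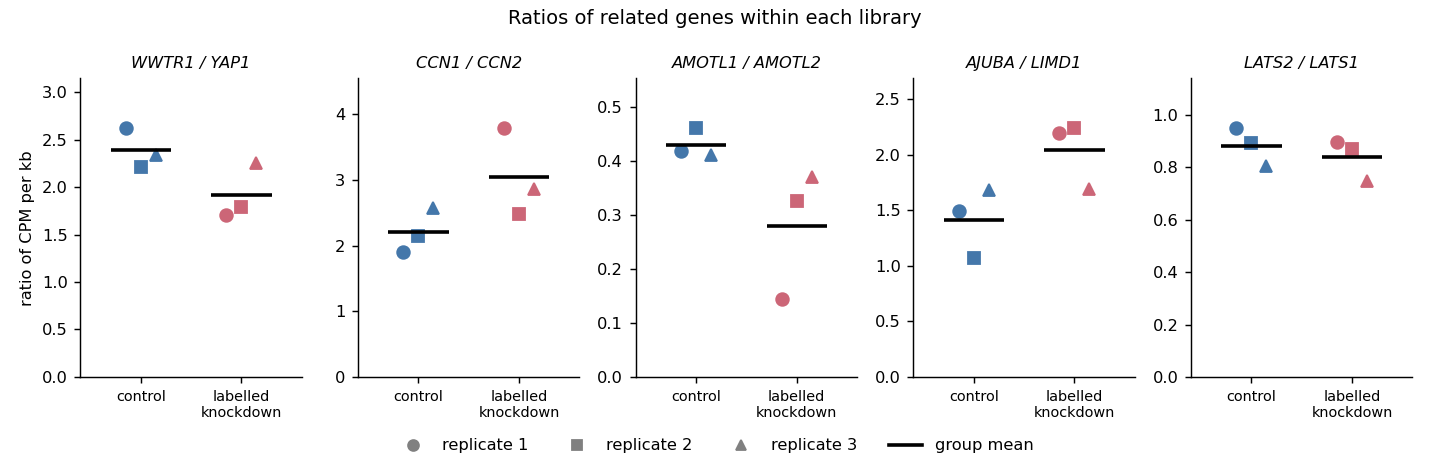
Ratio of the levels per kb of merged exons of 5 pairs of related genes in each library; points are libraries (shapes are replicates) and black lines are group means. The AMOTL1 to AMOTL2 ratio is lowest, at 0.144, in labelled replicate 1, while the LATS2 to LATS1 ratio stays between 0.748 and 0.949.

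Of 29 junction, polarity and scaffold genes, all tested, 0 passed in either direction, 16 had estimates above 0, and the median change was 0.017 on the log2 scale. Unadjusted p in edgeR were under 0.05 for AJUBA, AMOTL1 and LLGL2, which encodes a basolateral polarity protein. Of all tested genes, 4.03% lay under 0.05. AJUBA and AMOTL1 were already counted at this p in the comparison of the groups above, so only LLGL2 is added by this list. LLGL2 measured 27.7, 47.5 and 37.8 CPM in control and 23.5, 25.4 and 32.2 CPM in the labelled libraries, with overlapping groups. SLMAP, a component of the STRIPAK phosphatase complex that counters MST kinases, measured 96.1, 95.7 and 82.9 CPM in control and 67.8, 83.7 and 86.5 CPM in the labelled libraries.

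CCN1 (ENSG00000142871.18; chromosome 1, 85580761 to 85584589, plus strand) varied more between libraries than the co-activators. It measured 390, 287 and 353 CPM in control and 541, 345 and 398 CPM in the labelled libraries. Labelled replicate 1 was the highest and control replicate 2 the lowest, and the groups overlapped. The log2 fold change was 0.32 (SE 0.189), with the fold between 0.927 and 1.69, and it was 0.101 without labelled replicate 1.

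CCN2 (ENSG00000118523.6; chromosome 6, 131948176 to 131951372, minus strand), whose window holds the 3 TEAD cores shown above, was nearly level in 5 of the 6 libraries. It measured 129, 84.9 and 86.6 CPM in control and 90.2, 88 and 87.5 CPM in the labelled libraries. Control replicate 1 alone stood apart from the other libraries, which lay between 84.9 and 90.2 CPM. The log2 fold change was -0.18 (SE 0.16), with the fold between 0.687 and 1.14, and without control replicate 1 the log2 value was 0.059. The gene LINC01013 on the opposite strand shares 11.9% of the CCN2 exon bases and had 19 to 42 reads, against at least 3657 for CCN2.

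CCN1 and CCN2 did not peak in the same library. Their ratio per kb was 1.91, 2.14 and 2.58 in control and 3.79, 2.48 and 2.87 in the labelled libraries. It averaged 2.21 ± 0.337 and 3.05 ± 0.673 (SD, n = 3), and the groups overlapped. Of the other CCN genes, CCN3 lay at 63.2 to 78.5 CPM, CCN4 at 1.19 to 2.54 CPM, and CCN5 and CCN6 below 1 CPM in every library.

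ANKRD1 (ENSG00000148677.7; chromosome 10, 90912096 to 90921087, minus strand) encodes a nuclear ankyrin-repeat protein best known from heart and skeletal muscle. It was close to the detection limit, with 0, 29 and 22 reads in control and 14, 15 and 14 reads in the labelled libraries. In CPM this was 0, 0.601 and 0.392 in control and 0.345, 0.33 and 0.322 in the labelled libraries. The count of 0 in control replicate 1 allows up to 3 reads, or 0.0721 CPM; this limit covers counting error only, and mates counted singly make it too low. The 95% interval of the fold ran from 0.268 to 3.69, an interval that includes 2-fold changes in either direction.

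**Figure D4:**
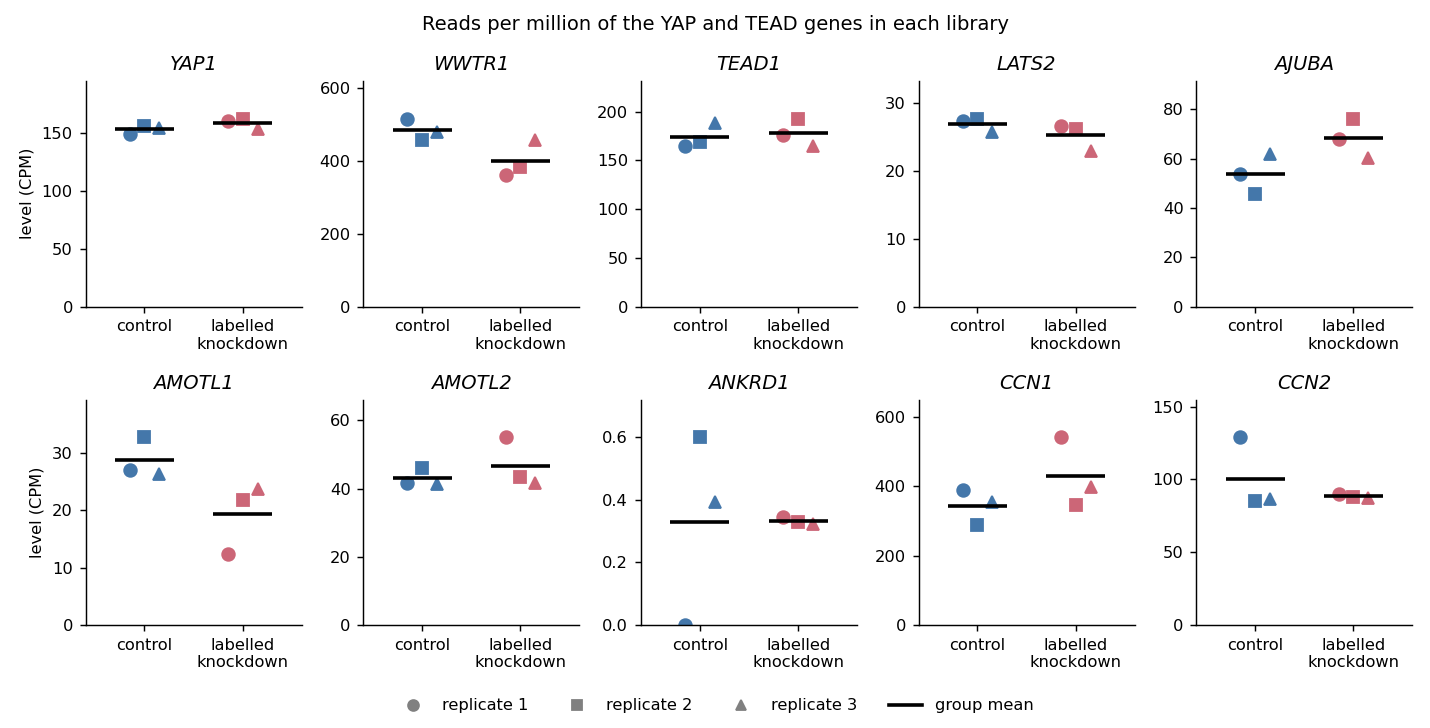
Level in CPM of each of the 10 genes in every library, with shapes for replicates and black lines for group means; each vertical axis starts at 0. The AMOTL1 groups do not overlap, with 23.7 and 26.3 CPM as their nearest libraries, CCN2 is raised in control replicate 1 alone at 129 CPM, and ANKRD1 has 0 reads in that library.

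Across a list of 22 genes that are commonly named as YAP and TAZ targets, 21 were tested and 0 passed in either direction. Of these, 11 were fitted above 0, where 49.2% of all tested genes lay below 0. The median log2 fold change was 0.127, against 0.0033 over all tested genes. This median is the value of AMOTL2, the smallest of the 11 estimates above 0, which was -0.027 without labelled replicate 1. In edgeR 1 of the 21 had an unadjusted p under 0.05, where 4.03% of all tested genes lay under it. This was NUAK2, a stress-activated kinase gene. NUAK2 was low, at 1.13, 0.436 and 1.07 CPM in control and 1.33, 2.73 and 1.24 CPM in the labelled libraries. AXL, a receptor tyrosine kinase gene, measured 328, 270 and 272 CPM in control and 378, 349 and 289 CPM in the labelled libraries. CCDC80, a gene of an extracellular matrix protein, lay at 56.8 to 66.3 CPM in control and 62.4 to 76 CPM in the labelled libraries, again with overlap. FOXF2 had 0 reads, while MYOF lay at 641 to 733 CPM and NT5E at 142 to 180 CPM.

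The spread between libraries of a group sets what this comparison can show. On the log2 scale of TMM-scaled CPM with a prior count of 2, the pooled SD within groups was 0.038 for YAP1, 0.0917 for TEAD1, 0.103 for LATS2 and 0.138 for WWTR1. It was 0.182 for AMOTL2, 0.186 for AJUBA, 0.254 for CCN2, 0.302 for CCN1 and 0.371 for AMOTL1. The median over the 11518 tested genes with a mean of at least 5 CPM was 0.131. The 95% interval of the fold lay within 2-fold in both directions for 8 of the 10 genes, all but AMOTL1 and ANKRD1.

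The genes did not share 1 pattern over the libraries. Labelled replicate 1 held the highest level of AMOTL2 and CCN1 and the lowest of WWTR1 and AMOTL1, in CPM and after TMM scaling alike. Control replicate 1 held the highest of WWTR1 and CCN2 and the lowest of YAP1 and ANKRD1 on both scales. The highest library differed between the scales for YAP1 (labelled replicate 2 in CPM, labelled replicate 1 after TMM scaling) and for LATS2 (control replicate 2 in CPM, control replicate 1 after TMM scaling). Over all tested genes on the TMM scale, labelled replicate 1 was the highest library for 19.1% and the lowest for 18.6%, and control replicate 1 for 15.5% and 16.7%.

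**Figure D5:**
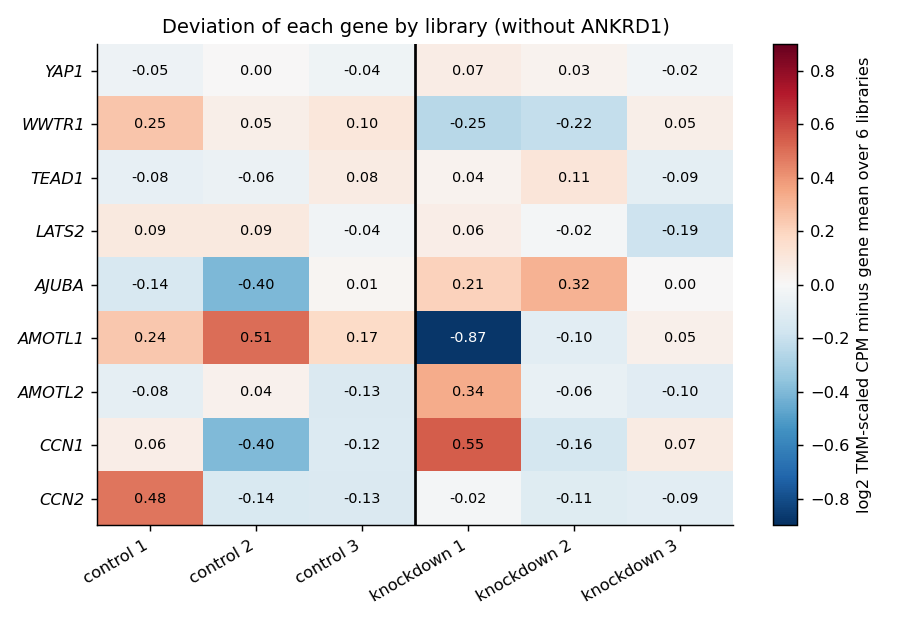
Log2 of TMM-scaled CPM of 9 genes in each library minus the gene's mean over the 6 libraries, with ANKRD1 left out because of its low counts; red is above and blue below the mean. The strongest departures are AMOTL1 at -0.87 and CCN1 at 0.55 in labelled replicate 1, AMOTL1 at 0.51 in control replicate 2 and CCN2 at 0.48 in control replicate 1.

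The genes whose profile over the 6 libraries was closest to a member were taken by the root mean square difference of centred log2 TMM-scaled CPM among the 11518 genes with a mean of at least 5 CPM. With 6 libraries and that many genes, close matches arise readily, so this is a description. For AMOTL1 they were MYH14 (0.0975), PHGDH (0.124) and LGALSL (0.127), all lowest in labelled replicate 1. MYH14, a nonmuscle myosin heavy chain gene, measured 11.3, 12.8 and 11.5 CPM in control and 4.66, 10.2 and 10.1 CPM in the labelled libraries. For CCN1 they were LINC02930 (0.0551), ACOT1 (0.0705) and LHFPL6 (0.0929), and for CCN2 PKN3 (0.07), NUFIP1 (0.0823) and ALG14 (0.0911). The matches of ANKRD1 were loose, led by HSD11B2 at 0.521.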

How the data were processed

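The authors deposited raw read counts per gene, made with featureCounts 2.0.6 from GENCODE 44 gene models on hg38, per the file headers. Which aligner was used is not stated in the labels or headers. The labels' protocol names a stranded library kit. Read pairs were not counted as fragments and no strand option was set, per the file headers, so each mate counts singly and antisense genes cannot be told apart. The counts given for antisense genes therefore do not show how many reads of shared exon bases were lost or gained. Of genes with 2 to 10 reads, 73.4% to 76.7% had an even count. All 62700 gene identifiers matched a symbol. Gene lengths in bases (merged exons) came from the deposited table.

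Genes were filtered with filterByExpr (20250 kept), scaled with TMM and tested with edgeR 4.0.16 (quasi-likelihood, robust, group only; R 4.3.3) with Benjamini-Hochberg adjustment over all genes at 0.05. Each SE is the absolute log2 fold change over the root of F, and the test was checked on simulated data. CPM used library totals; log2 values for spread, deviations and nearest profiles used TMM-scaled CPM with a prior count of 2. Every pair of libraries differed by more than sampling noise (chi-square per gene 11.97 to 43.96 at 20 reads or more).

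Named genes were NNMT, the 10 genes, set paralogs and partners, up to 3 genes of each list with the lowest p, and the 3 nearest profiles of AMOTL1, ANKRD1, CCN1 and CCN2; MYOF, NT5E, FOXF2, VGLL2, CCN6, SRF, VCL and the marker genes were named after their values were seen. The genes and lists were chosen with earlier results of these data known. Alternatives were other scalings and filters, DESeq2 1.42.0, limma-voom (limma 3.58.1), non-robust dispersion, a replicate block, halved counts, leaving out each library, and other lengths.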

Additional observations from a re-analysis of the deposited data

How the results depend on the processing

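The count of genes past the threshold was 0 with all 6 libraries, and moved to 72 without a filter on low counts, to 8 in DESeq2 and to 1 without control replicate 3; leaving out each library in turn gave 0 to 1. Of the 10 YAP and TEAD genes, 1 (AMOTL1) passed without the filter and 0 in every other alternative. Upper-quartile and RLE scaling, the stricter filter, non-robust dispersion, limma-voom, halved counts and the replicate block each called 0 genes. In the replicate block the ANKRD1 log2 fold change turned to 0.376; it was 0.005 in DESeq2 and 1.091 in limma-voom, and -0.562 to 0.705 when each library was left out. ANKRD1 did not pass the stricter filter or the filter on halved counts, so it has no value there. Deviations of same-numbered libraries correlated at 0.055, -0.0869 and 0.2 across genes, and those of differently numbered libraries at -0.224 to 0.151. The highest value was that of replicate 3 of both groups. Those 2 libraries also had the lowest chi-square per gene of all pairs, 11.97. These values do not settle whether the replicate numbers mark pairs. The median log2 fold change of the 10 genes ran from -0.038 to 0.066 over the fits without 1 library. It was below 0 without labelled replicate 1 (-0.038) and without labelled replicate 2 (-0.003). Over the same fits TEAD1 ran from -0.013 to 0.089, AMOTL2 from -0.027 to 0.204 and CCN2 from -0.283 to 0.059. The other 6 genes kept their sign in all alternatives, with LATS2 from -0.149 to -0.027, CCN1 from 0.101 to 0.464 and AMOTL1 from -0.749 to -0.34 over the fits without 1 library. The rank order by level per kb held for 6 of 10 genes in CPM without division by length and for 7 with principal transcripts. The causes of these changes were not tested.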

Other observations

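CCN1, ANKRD1 and several other YAP targets are also targets of serum response factor, so a list of 20 genes of that response was read beside them. Of its 18 tested genes 0 passed in edgeR's quasi-likelihood test. Of the 18, 12 were fitted below 0, as were 49.2% of all tested genes. The median log2 fold change was -0.142, against 0.0033 over all tested genes, and a shift of the list was not tested. ATF3, an early stress-response transcription factor gene, had the lowest unadjusted p of the list. It measured 10.1, 11.7 and 10.4 CPM in control and 7.03, 6.41 and 8.79 CPM in the libraries labelled knockdown, with no overlap, which 4.88% of all tested genes showed in that direction. TPM1, a tropomyosin gene, measured 43.2, 50.6 and 43.9 CPM in control and 37.2, 29.2 and 44.6 CPM in the labelled libraries. The serum response factor gene SRF lay at 50.4 to 59.9 CPM and the focal adhesion gene VCL at 897 to 1070 CPM, both with overlapping groups.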
